A study of Mus musculus with 10 samples.

Results

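The genes described here are the 10 protein genes of the mouse mitochondrial genome named mt-Nd1, mt-Nd2, mt-Nd4, mt-Nd5, mt-Nd6, mt-Cytb, mt-Co1, mt-Co2, mt-Co3 and mt-Atp6. They were chosen by name among the 43629 genes of the count table, and all 10 were found by their Ensembl identifiers. They are 10 of the 13 protein genes, and of the 37 genes in all, that GENCODE M21 places on chromosome M. The libraries came from kidneys of male UM-HET3 mice, a genetically heterogeneous stock, at 4 months of age. Control mice (n = 6) ate the Purina 5LG6 diet without drug, and treated mice (n = 4) ate it with rilmenidine at 10 ppm from the age of 3 months, for 1 month. Rilmenidine is a prescription drug against high blood pressure that acts on I1-imidazoline receptors, and the study asked whether its effects in worms are mirrored in mouse tissues. The study's methods give 8 control kidneys, and 6 were analysed here. The authors deposited raw counts of reads per gene, from libraries whose labels cite the CEL-Seq2 protocol, which reads near the 3′ end of polyadenylated RNA.

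Mitochondria keep a small circular genome of their own. It encodes core subunits of the respiratory chain, namely complexes I, III and IV, and of the ATP synthase, complex V, together with the ribosomal and transfer RNAs needed to translate them. Both strands are transcribed as long polycistronic RNAs by the nuclear-encoded polymerase Polrmt with Tfam, the RNAs are cut mostly at the transfer RNAs between the genes, and most messengers receive a short poly(A) tail. Kidney tubules, and the proximal tubule above all, are rich in mitochondria because sodium reabsorption consumes much ATP. In whole tissue, fewer mitochondria-rich cells and less mitochondrial RNA per cell cannot be told apart.

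The ends of these genes are shown first, since a 3′ protocol reads there and since parts of the mitochondrial genome also stand, as old insertions, in nuclear chromosomes. The last 30 bases of 9 of the genes, taken from the GENCODE M21 transcripts (GRCm38) and written 5′ to 3′ along the gene's own strand, are given with capitals for the bases that are identical in the closest annotated nuclear transcript.
mt-Nd1: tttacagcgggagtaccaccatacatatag
mt-Nd4: gtccaaaactaattacaggcctgacaatat
mt-Nd2: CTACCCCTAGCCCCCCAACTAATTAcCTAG
mt-Cytb: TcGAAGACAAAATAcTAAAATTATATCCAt
mt-Nd6: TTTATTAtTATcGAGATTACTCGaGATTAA
mt-Co1: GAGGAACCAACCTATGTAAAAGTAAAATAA
mt-Co2: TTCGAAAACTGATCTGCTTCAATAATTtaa
mt-Co3: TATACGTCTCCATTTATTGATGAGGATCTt
mt-Atp6: GTAAGCCTATATCTACATGATAATACAtaa
They lie at chrM:3678-3707 (mt-Nd1, plus strand), chrM:11515-11544 (mt-Nd4, plus strand), chrM:4922-4951 (mt-Nd2, plus strand), chrM:15259-15288 (mt-Cytb, plus strand), chrM:13552-13581 (mt-Nd6, minus strand), chrM:6843-6872 (mt-Co1, plus strand), chrM:7667-7696 (mt-Co2, plus strand), chrM:9361-9390 (mt-Co3, plus strand) and chrM:8578-8607 (mt-Atp6, plus strand), each of them the end of an exon. The end of mt-Nd5, which overlaps that of mt-Nd6 on the other strand, is not shown. The ends of mt-Nd1 and mt-Nd4 have no capitals. For mt-Nd1 no nuclear transcript passed the search. The only copy found for mt-Nd4, the pseudogene Gm28439, was identical to bases 1 to 876 of 1378 and left the end of mt-Nd4 uncovered. The end of mt-Co1 is in capitals throughout, and those of mt-Co2, mt-Co3 and mt-Atp6 are so up to the last bases, which the annotated copies do not reach. These 4 copies, Gm29216, Gm28661, Gm28437 and Gm10925, stand within a few kilobases of each other on chromosome 1 (the first from 24615706 to 24616197, the last from 24613974 to 24614651).

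Over the last 100 annotated bases, the read length given for the libraries, the copies of mt-Co1, mt-Co2, mt-Co3 and mt-Atp6 differed from the gene at 0 bases of the 100, 97, 99 and 97 that they cover. The copy of mt-Nd2, Gm13339 on chromosome 2, differed at 3 of 100. On chromosome 4 the pseudogenes Gm11408 and Gm11410 resemble mt-Nd6 and mt-Cytb and differed at 5 of 100 and 6 of 99. That of mt-Nd5, Gm11407, covered 76 of the last 100 bases and differed at 4. A read that is identical at 2 places cannot be assigned to either, and how such reads were handled is not given in the sources used here. The 4 copies on chromosome 1 had counts of their own. Gm29216 had 37 to 245 in a kidney, Gm28661 6 to 25, Gm28437 2 to 19 and Gm10925 4 to 31. Summed over the kidneys, Gm28661, Gm28437 and Gm10925 had 142, 91 and 119 counts. Their genes mt-Co2, mt-Co3 and mt-Atp6 had fewer, at 58, 72 and 70. Gm29216 had 1022 against 8459 of mt-Co1.

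**Figure D1:**
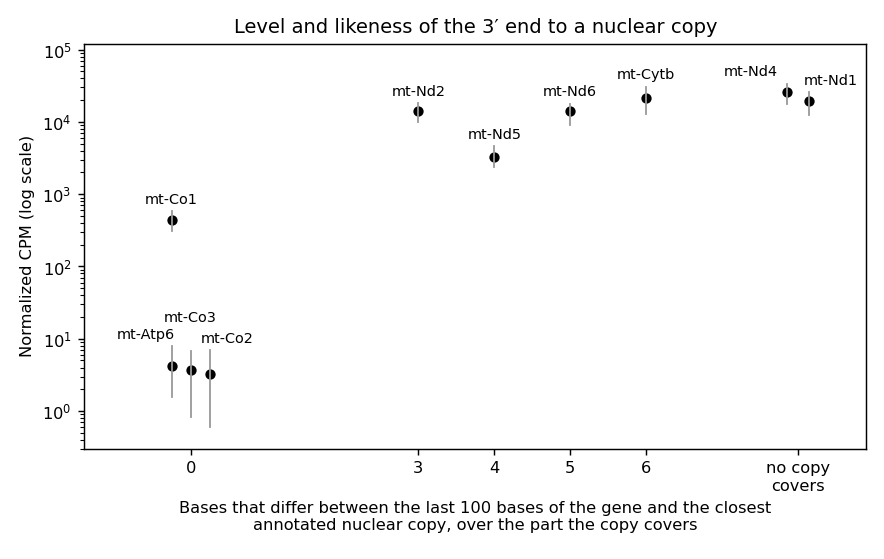
Mean level of each of the 10 genes over 10 kidneys (points, normalized CPM on a log axis, with lines from the lowest to the highest kidney) against the number of bases that differ between its last 100 annotated bases and the closest annotated nuclear copy. The 4 genes at 0 reach at most 581 normalized CPM and the other 6 are at 2383 or more.

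The counts fell into 3 ranges. The 6 genes mt-Nd1, mt-Nd2, mt-Nd4, mt-Nd5, mt-Nd6 and mt-Cytb had 3158 to 88043 raw counts in every kidney and held 99.4% to 99.6% of the counts on the 10 genes. The gene mt-Co1, which encodes the catalytic core of cytochrome c oxidase (complex IV), had 370 to 1552. The remaining complex IV genes, mt-Co2 and mt-Co3, and the complex V gene mt-Atp6 had 1 to 14. The copy closest to the end of mt-Co1, Gm29216, aligned over 31.3% of that gene. Those of mt-Co2, mt-Co3 and mt-Atp6 aligned over 99.6% to 99.9%. The low genes are those whose last annotated bases are identical in a nuclear copy, and the part of those copies in the low counts was not tested. The same held for the 3 protein genes outside the 10, since mt-Nd3, mt-Nd4l and mt-Atp8 had at most 1, 1 and 0 counts in any kidney, and their nuclear copies showed 0 differences over the 97, 97 and 43 of their last 100 bases that are covered.

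Total counts per kidney ran from 863605 to 2559118 in controls and from 1813465 to 3232063 with rilmenidine. Tissue markers were those of kidney in all 10 libraries, with 28005 to 170342 counts of the proximal tubule gene Kap and at most 20 of the liver gene Alb, although the extraction text speaks of liver. The summed level of 13 proximal tubule markers was 46989.7 to 59741 normalized CPM in controls and 50791 to 74081 with the drug, of which Kap made up most, at means of 39169 and 46762. Of the 13 log2 fold changes 8 were above 0. Malat1, a nuclear RNA, stood apart in 4 control kidneys (1, 3, 4 and 5) at 1199.6 to 2209 CPM, against 284 and 371 in the other 2 and 288 to 389.8 with the drug. Counts on olfactory and vomeronasal receptor genes were 4.27 to 6.81 CPM in control 6 and rilmenidine 3 and 4 and 45.7 to 387 CPM in the other 7 libraries.

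The 10 genes together took 6.12% to 12.8% of all counts of a kidney. In control kidneys 1 to 6 the share was 10.4, 6.12, 7.98, 12.8, 9.69 and 11.6%. In rilmenidine kidneys 1 to 4 it was 9.55, 8.88, 11.5 and 9.38%. The lowest and the highest share were both from control kidneys, so that the treated kidneys lay wholly inside the range of the controls. The mean was 9.77% ± 2.42 (SD, n = 6) in controls and 9.82% ± 1.13 (SD, n = 4) with rilmenidine. The difference of 0.0487 percentage points was far smaller than the spread between kidneys. Counting error is small beside that spread, with 95% Wilson intervals reaching at most 0.0645 percentage points to either side (counting error only). Leaving out single kidneys moved the difference between −0.680 and 0.650 points, the ends being reached without control 2 and without control 4.

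The order of the shares was not that of the total counts. The smallest library, control 1 with 863605 counts, had 10.4%, and the largest, rilmenidine 4 with 3232063, had 9.38%. Control 4, with the highest share, was among the smaller libraries, while rilmenidine 3 and control 6, both among the larger, had 11.5% and 11.6%. The 2 control kidneys with low Malat1 lay near both ends, at 6.12% and 11.6%. Measured against counts outside the mitochondrial genome only, the 10 genes averaged 11.2% in controls (range 6.59% to 15.1%) and 11.2% with the drug (range 9.82% to 13.3%). Within those 7 libraries of higher receptor gene counts (5 control and 2 rilmenidine) the difference in the share of all counts was −0.185 percentage points, and the remaining 3 libraries include a single control kidney, which gives no spread.

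**Figure D2:**
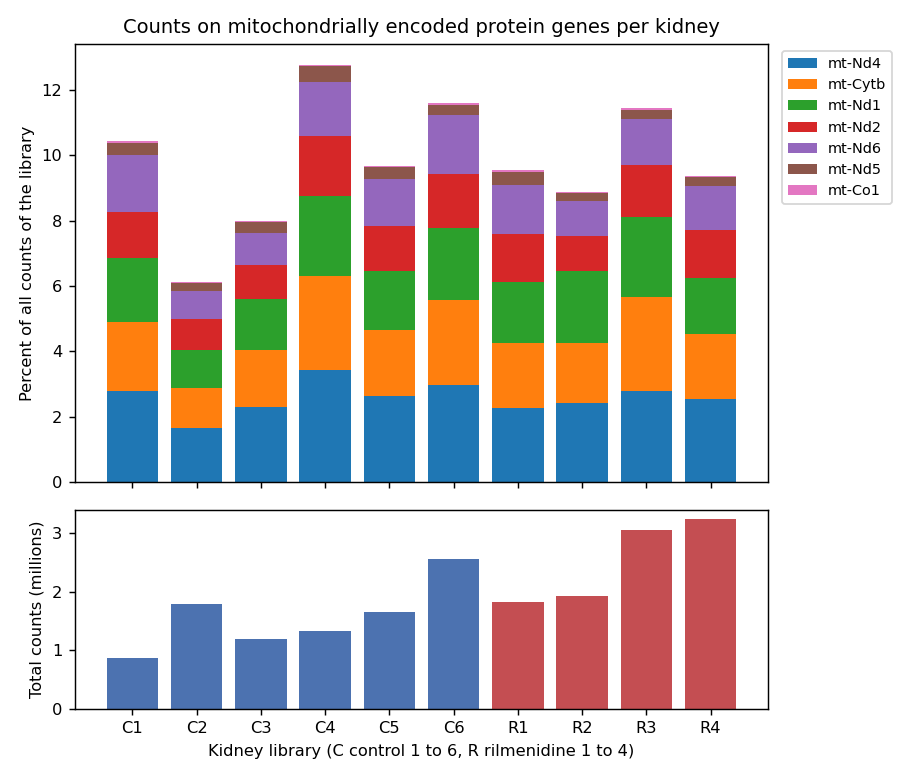
Percent of all counts of each kidney library on the mitochondrially encoded protein genes, stacked by gene (top; mt-Co2, mt-Co3 and mt-Atp6 are too few to draw), above the total counts of the same libraries (bottom). Shares run from 6.12% in control 2 to 12.8% in control 4, and those of the 4 rilmenidine kidneys stand between them.

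Of the 10 genes, 8 passed the filter on low counts (at least 6 reads in at least 7 of 10 kidneys) and were tested. None of the 8 passed the quasi-likelihood test of edgeR, adjusted by Benjamini-Hochberg over the 10055 genes, in which 0 genes passed an adjusted p-value of 0.05 (0.0%). Without adjustment, 0 of the 8 and 1061 (10.6%) of all genes had a p-value under 0.05. DESeq2 called 60 of the 10055 genes and 0 of the 8, although mt-Co3 was given no adjusted p-value there. The control and rilmenidine ranges overlapped for all 10 genes, while among all genes tested 80 (0.796%) lay wholly above and 88 (0.875%) wholly below the controls, 168 (1.67%) in either direction. Of the 8 fitted log2 fold changes 6 were positive, beside 50.3% of those of all genes, and their median was 0.07 beside 0.00 over all genes. Without rilmenidine 3 only 2 of 8 were positive (median −0.05), and without control 3 only 3 of 8 (median −0.02). Levels are given as normalized CPM, the usual CPM with library sizes scaled by RLE, a method that equalises the typical gene between libraries.

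The 5 complex I genes encode membrane subunits of NADH dehydrogenase, through which protons are pumped. The gene mt-Nd4 (ENSMUSG00000064363; chromosome M, 10167 to 11544 of GRCm38, coding sequence) had the highest level. It ran from 17609.7 to 33993 with a median of 25937 normalized CPM in controls and was 23766, 25268, 29615 and 25638 in rilmenidine kidneys 1 to 4. The treated kidneys sat in the middle of the control range, and the means were 25975 ± 5675 (SD, n = 6) and 26072 ± 2497 (SD, n = 4). Its log2 fold change was 0.01 (standard error 0.188, 95% interval −0.39 to 0.40), and edgeR gave an adjusted p-value of 0.995.

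For mt-Nd1 (ENSMUSG00000064341; chromosome M, 2751 to 3707) the controls ran from 12625 to 24068 with a median of 18044 normalized CPM, and rilmenidine kidneys 1 to 4 had 19622, 22911, 25954 and 17318. Rilmenidine 3 was the highest of all 10 kidneys and the other 3 treated kidneys lay within the controls. The means were 18330.2 ± 4196 (SD, n = 6) and 21451 ± 3779 (SD, n = 4), and the log2 fold change of 0.23 (standard error 0.196, 95% interval −0.19 to 0.64) was the largest among the 8 genes tested. In edgeR its adjusted p-value was 0.727. The neighbouring mt-Nd2 (ENSMUSG00000064345; chromosome M, 3914 to 4951) ran from 10115 to 18424 with a median of 13297 in controls and was 15354, 11460.0, 16924 and 14788 with rilmenidine, all inside the control range. Its log2 fold change was 0.10 (standard error 0.197, 95% interval −0.32 to 0.52).

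The genes mt-Nd5 and mt-Nd6 lie on opposite strands and overlap by 14 bases at their 3′ ends. For mt-Nd5 (ENSMUSG00000064367; chromosome M, 11742 to 13565, plus strand) the controls ran from 2601 to 4646 with a median of 3358 normalized CPM and rilmenidine kidneys 1 to 4 had 4407, 2383, 3081 and 2638. Rilmenidine 1 was within the controls near their top, rilmenidine 2 was the lowest of all 10 kidneys, and the log2 fold change was −0.14 (standard error 0.191, 95% interval −0.55 to 0.26). For mt-Nd6 (ENSMUSG00000064368; chromosome M, 13552 to 14070, minus strand), the only one of the 10 on that strand, levels ran from 9202 to 17886 with a median of 15131 in controls and were 15775, 11213, 15014 and 13756 with the drug. The treated kidneys lay inside the control range, and the log2 fold change was −0.01 (standard error 0.208, 95% interval −0.45 to 0.43). In raw counts mt-Nd6 exceeded mt-Nd5 by 3.05 to 5.43 times in a kidney, with 4.07 ± 0.892 (SD, n = 6) in controls and 4.59 ± 0.708 (SD, n = 4) with rilmenidine. Because the strand setting of the counting is not given, reads of mt-Nd6 and reads from the opposite strand at the same place cannot be told apart.

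Complex III has a single mitochondrial gene, mt-Cytb (ENSMUSG00000064370; chromosome M, 14145 to 15288), which encodes cytochrome b. Its level ran from 13057 to 28635 with a median of 19951 normalized CPM in controls and was 20989.6, 19198, 30799 and 20130.3 in rilmenidine kidneys 1 to 4. Rilmenidine 3 was the highest of the 10 kidneys and stood well above the other 3 treated ones, which lay close together inside the control range. The log2 fold change was 0.13 (standard error 0.220, 95% interval −0.33 to 0.60) with an adjusted p-value of 0.890 in edgeR's quasi-likelihood test, and without rilmenidine 3 it changed sign, at −0.05.

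Of the complex IV genes, mt-Co1 (ENSMUSG00000064351; chromosome M, 5328 to 6872) ran from 307 to 581 with a median of 436 normalized CPM in controls and was 517, 376, 543 and 388 with rilmenidine. The groups overlapped throughout, and the log2 fold change was 0.06 (standard error 0.171, 95% interval −0.30 to 0.43). The raw counts of mt-Co2 (ENSMUSG00000064354; chromosome M, 7013 to 7696) were 2, 1, 3, 6, 12 and 5 in controls 1 to 6 and 8, 9, 4 and 8 with rilmenidine. Only 5 kidneys reached 6 reads, so this gene was not tested. For mt-Co3 (ENSMUSG00000064358; chromosome M, 8607 to 9390) the counts were 6, 6, 1, 2, 8 and 12 and 5, 9, 14 and 9, enough for the filter in 7 kidneys, with a log2 fold change of 0.07 (standard error 0.437, 95% interval −0.85 to 1.00). The complex V gene mt-Atp6 (ENSMUSG00000064357; chromosome M, 7927 to 8607), whose product forms the proton channel of the ATP synthase, had 7, 4, 8, 6, 8 and 5 counts in controls and 5, 10, 12 and 5 with rilmenidine and was not tested, with 6 kidneys at 6 reads or more.

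**Figure D3:**
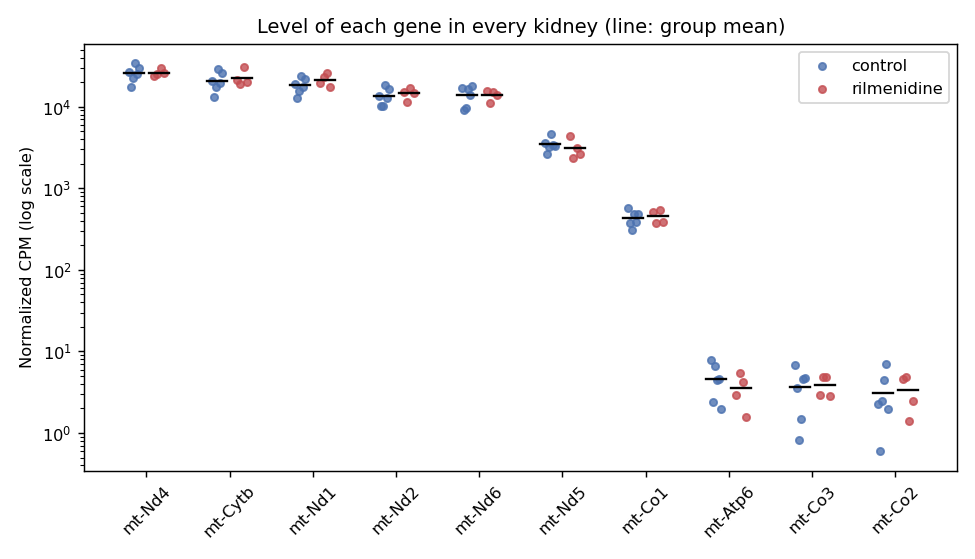
Normalized CPM (log axis) of the 10 genes in 6 control (blue) and 4 rilmenidine (red) kidneys, with a line at each group mean. The groups overlap for every gene, and mt-Co1 and the last 3 genes stand apart from the 6 abundant ones.

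**Figure D4:**
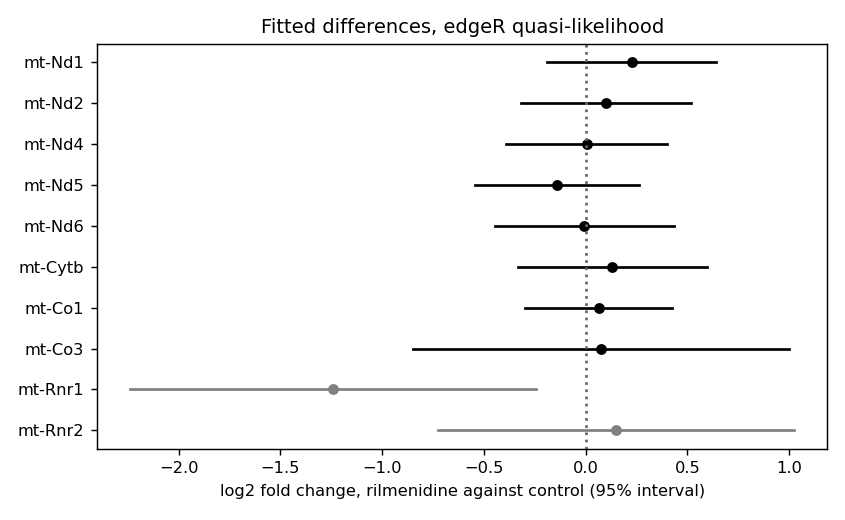
Fitted log2 fold change of rilmenidine against control kidneys with its 95% interval for the 8 genes tested (black) and the mitochondrial ribosomal RNAs (grey). All 8 intervals of the protein genes include 0. The direction of mt-Nd2, mt-Nd4, mt-Nd5, mt-Nd6, mt-Cytb, mt-Co1 and mt-Co3 turned with at least 1 other setting or 1 kidney left out.

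The order of the levels depends on the scale. In normalized CPM per kilobase of gene, averaged over the 10 kidneys, mt-Nd6 came first at 26941, followed by mt-Nd1 (20458), mt-Nd4 (18878), mt-Cytb (18874) and mt-Nd2 (13527). The ranges of these neighbours overlapped, although mt-Nd6 exceeded mt-Nd1 in 9 of 10 kidneys and mt-Cytb exceeded mt-Nd2 in 10 of 10, whereas mt-Nd4 exceeded mt-Cytb in 6. Then came mt-Nd5 (1820.3) and mt-Co1 (288), each without overlap with the gene above it. Per kilobase mt-Atp6, mt-Co3 and mt-Co2 were at 6.17, 4.78 and 4.69 and overlapped with each other. A 3′ protocol does not give longer messengers more reads, so dividing by length raises short genes. The first place of mt-Nd6, with 519 bases, is therefore no measure of its messengers against the others. On the scale without length, normalized CPM, the 5 leading genes were mt-Nd4, mt-Cytb, mt-Nd1, mt-Nd2 and mt-Nd6 in that order. The lower 5 kept their places. The place of mt-Nd6 on either scale may include reads from the opposite strand, since the strand setting is not given.

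For the 6 abundant genes and mt-Co1 the level varied more between kidneys than the share of the counts on the 10 genes. Across the 10 kidneys the coefficient of variation of the level was 17.2% for mt-Nd4, 24.9% for mt-Cytb, 20.6% for mt-Nd2 and 21.1% for mt-Nd1. For the same genes' share of the counts on the 10 genes it was 5.71%, 7.15%, 7.68% and 9.66%. The 2 values were closer for mt-Nd5, at 22.3% for the level and 19.7% for the share, and for mt-Co1, at 20.1% and 16.04%. For the sparse mt-Co2, mt-Co3 and mt-Atp6 the share varied slightly more than the level, at 62.9%, 47.8% and 53.5% against 60.5%, 47.5% and 48.9%. Shares of one total are tied to each other, so this is a description. Within control kidneys the 7 genes with more than 100 normalized CPM had coefficients of variation of 19.5% to 27.4%, beside a median of 23.5% over all genes tested and of 14.3% over the 91 most abundant nuclear genes.

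In controls mt-Nd1 made up 18.7% to 19.5% of the counts on the 10 genes, and in rilmenidine kidneys 1 to 4 19.5, 24.7, 21.3 and 18.3%. Rilmenidine 2 and 3 were above every control and rilmenidine 4 was below every control. The share of mt-Nd5 was 2.85% to 4.05% in controls and 4.39, 2.57, 2.53 and 2.79% with the drug, with rilmenidine 1 above and the other 3 below all controls. For mt-Nd4 it was 25.7% to 28.8% and 23.7, 27.2, 24.3 and 27.1%. Here rilmenidine 1 and 3 were below every control and the other 2 lay inside the control range.

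**Figure D5:**
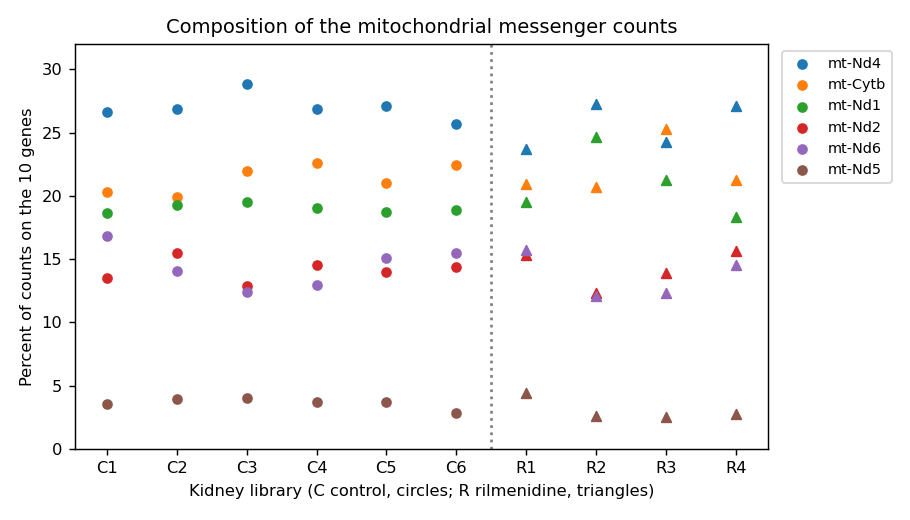
Share of the counts on the 10 genes taken by each of the 6 abundant genes in every kidney (controls as circles, rilmenidine as triangles). The shares of mt-Nd1 lie between 18.7% and 19.5% in the controls and between 18.3% and 24.7% with rilmenidine.

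The ribosomal RNAs of the same genome, which precede mt-Nd1 on the same precursor, varied more between control kidneys than the 7 messengers with more than 100 normalized CPM, with coefficients of variation of 73.3% for mt-Rnr1 and 47.1% for mt-Rnr2. The large one, mt-Rnr2 (chromosome M, 1094 to 2675), ran from 9579 to 32978 with a median of 17878 normalized CPM in controls and was 41217, 6173, 23049 and 13637 with rilmenidine, so that both the highest and the lowest kidney were treated. The small one, mt-Rnr1 (chromosome M, 70 to 1024), ran from 637 to 4800.2 with a median of 1987 in controls and was 1612, 639, 714 and 649 with the drug, and its fitted log2 fold change was −1.24 (standard error 0.472, 95% interval −2.24 to −0.24). In edgeR its adjusted p-value was 0.357. The 4 control kidneys highest in mt-Rnr1 (1, 3, 4 and 5) are the 4 with high Malat1. Rilmenidine 1, at 1612 normalized CPM of mt-Rnr1, was above control 3 at 1550, although its Malat1 was low, at 322 CPM. The part of the nuclear RNA difference in that of mt-Rnr1 was not tested. The libraries were made from polyadenylated RNA, and of the 22 transfer RNA genes only mt-Te and mt-Tp passed the filter, with at most 85 and 48 counts.

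The nuclear genes that make, process and translate mitochondrial RNA were read from the same test, in lists written by hand. No gene of these lists passed the adjusted threshold, and the counts below are at an unadjusted p-value under 0.05, which 4.43% of all genes passed upward and 6.13% downward. Of 16 tested genes for transcription and replication of mitochondrial DNA, 0 were higher and 1 was lower, and the median log2 fold change was −0.24. The lower one was Polrmt, the mitochondrial RNA polymerase, at 27.6 ± 5.51 (SD, n = 6) normalized CPM in controls and 20.6 ± 2.56 (SD, n = 4) with rilmenidine. The fitted value was −0.44 (standard error 0.186) on the log2 scale (edgeR quasi-likelihood, adjusted p-value 0.421). Tfam, which packages the mitochondrial DNA and helps to start transcription, stood at 0.12 (standard error 0.136) on the log2 scale, Polg, the DNA polymerase, −0.30 (standard error 0.386), its accessory subunit Polg2 0.38 (standard error 0.367), and the helicase gene Twnk −0.24 (standard error 0.265). The median of this list was −0.03 with log2 library size as a covariate and −0.07 without rilmenidine 4. With at least 10 counts in every library only 7 of its genes were tested, with a median of 0.01, so that value is over a smaller set.

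Among 23 tested genes of mitochondrial RNA processing and stability, 2 were higher and 0 lower at an unadjusted p-value under 0.05, with a median of 0.09. Hsd17b10, a subunit of the mitochondrial RNase P that cuts transfer RNAs out of the precursor, had the smallest p-value, at 0.39 (standard error 0.149) on the log2 scale (edgeR quasi-likelihood, adjusted p-value 0.358). Mtpap, the mitochondrial poly(A) polymerase, had −0.42 (standard error 0.253) and Lrpprc, which stabilizes the messengers, −0.09 (standard error 0.142). Of 16 tested genes of mitochondrial translation 0 were higher and 1 was lower, with a median of 0.02. The lower one was the elongation factor gene Guf1, at −0.65 (standard error 0.219), and at the other end Mrps27, a protein of the small ribosomal subunit, had 0.30 (standard error 0.168). Of 10 regulators of mitochondrial biogenesis 0 were higher and 1 was lower, Gabpb1 at −0.61 (standard error 0.280), with a median of −0.21. Esrra, a nuclear receptor, had 0.27 (standard error 0.251), and the coactivator gene Ppargc1a −0.26 (standard error 0.184). The median of the biogenesis list was −0.03 with log2 library size as a covariate and 0.02, with 5 of 10 genes above 0, with log2 Malat1, and the latter turned the median of the translation list to −0.07.

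The nuclear-encoded subunits that assemble with these mitochondrial products had higher medians than the mitochondrial genes. At an unadjusted p-value under 0.05, 10 of 34 tested nuclear subunits of complex I were higher and 0 lower, and the median log2 fold change was 0.22. For complex III the numbers were 0 and 0 of 9 with a median of 0.25, for complex IV 3 and 1 of 11 with 0.20, and for complex V 4 and 0 of 16 with 0.23. The mitochondrial genes of complex I, by comparison, had log2 fold changes from −0.14 to 0.23, and the difference between the nuclear and the mitochondrial subunits was not tested. Ndufa7 of complex I stood at 0.43 (standard error 0.129) on the log2 scale (edgeR quasi-likelihood, adjusted p-value 0.279), and Ndufs3 had −0.17 (standard error 0.285). Uqcrh of complex III had 0.25 (standard error 0.126), Cox7a2 and Cox7c of complex IV 0.34 (standard error 0.129) and −0.86 (standard error 0.337), and Atp5j and Atp5l of complex V 0.31 (standard error 0.127) and −0.20 (standard error 0.383). Of 16 genes of the outer membrane, matrix and import, 1 was higher, the channel gene Vdac2 at 0.29 (standard error 0.132), and 0 lower, with a median of 0.10 and Timm44 of the import motor at −0.08 (standard error 0.163). With log2 Malat1 as a covariate the medians of the nuclear complexes were 0.02 to 0.03 and that of the mitochondrial genes 0.07. With log2 library size as a covariate they were 0.13 to 0.14 and 0.01. The median of the membrane and import list fell to −0.0077 and −0.0012 with these covariates.

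The 5 nuclear genes whose level was most like the mean log2 level of the 10 genes over the 10 kidneys, after the mean of each group was subtracted, were Rnf169, Nfyb, 2310010J17Rik, Sept11 and Tlcd1. Pearson's r was 0.96, 0.92, 0.92, 0.88 and 0.88. They are the highest of 5812 genes with at least 20 normalized CPM, the points share library and depth, and the first 3 average only 20.8 to 23.8 normalized CPM. The mean weighs the 10 genes equally, and so includes mt-Co2, mt-Co3 and mt-Atp6 with their 1 to 14 counts. The levels of these 3 varied most between kidneys, with coefficients of variation of 47.5% to 60.5%. Against the 6 abundant genes alone r was 0.79 to 0.85, and the 5 genes ranked from 11 to 29 of the candidates.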

How the data were processed

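Gene counts of 10 kidney libraries (6 control and 4 rilmenidine) were used, grouped by their labels. The authors deposited raw counts of reads per Ensembl gene. Per the labels and methods, Trimmomatic 0.32, STAR 2.5.2b and featureCounts 1.5 were used with mm10, and the annotation release, strand setting, treatment of reads that map to several places and use of molecular identifiers are not given in the sources used here. Uncollapsed duplicates would inflate the counts over the molecules. Symbols and coordinates came from GENCODE M21 (GRCm38), which holds 42462 of the 43629 listed genes.

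A gene was kept where 7 or more of the 10 libraries held 6 or more of its reads, which left 10055. RLE scaling and the quasi-likelihood test of edgeR 4.0.16 (R 4.3.3) were applied with no covariate, with Benjamini-Hochberg adjustment over all genes kept and a threshold of 0.05. Standard errors are the fold change divided by the root of its F statistic. On simulated data with 200 of 9781 genes shifted by a log2 fold change of 1.5, it recovered 176 with 9 false calls. Log2 levels use a prior count of 2. Members' transcripts were searched with BLAST 2.17.0 (identity of at least 85%, word size 28) against annotated nuclear transcripts, and unannotated nuclear copies were not searched.

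The members and lists were chosen with earlier results of these data known. Named genes are the 10 members, the top gene by p-value per list and direction, and a set of added genes (Tfam, Polrmt, Lrpprc, Polg, Twnk and Ppargc1a). No p-value was computed for sums over the members. Alternatives were TMM, scaling on nuclear genes, 2 other filters, DESeq2 1.42.0, covariates, a replicate block, leaving out each kidney, and a subset of libraries. Another, chosen after seeing the data, took the 6 members with no nuclear copy identical over their last bases.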

Additional observations from a re-analysis of the deposited data

Results flagged for a closer look

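Single kidneys stood apart from the rest of their group in 6 of 92 sets of values examined, where about 1 in 20 would do so by chance. Rilmenidine 3 had 30799 normalized CPM of mt-Cytb against 19198 to 20989.6 in the other treated kidneys, and mt-Cytb took 25.3% of its counts on the 10 genes against 20.7% to 21.3%. In rilmenidine 1 mt-Nd5 took 4.39% of those counts against 2.53% to 2.79%, and mt-Rnr1 was at 1612 normalized CPM against 639 to 714. Polg2 was at 11.4 normalized CPM in rilmenidine 2 against 3.75 to 4.90, and without that kidney its log2 fold change turned to −0.06. Gabpb1 was at 32.4 in control 3 against 14.6 to 20.8 in the other controls.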

How the results depend on the processing

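Under the 19 alternatives the count of the 10 genes called, and of machinery and partner genes called, remained 0. Of the genes named here, DESeq2 gave no adjusted p-value for mt-Co3, Polg, Polg2, Twnk, Ndufs3, Cox7c and Atp5l. The count over all genes was 241 of 27565 (64 higher and 177 lower) with every gene of at least 1 count kept, 60 with DESeq2 and 3 with the replicate block, and 0 to 37 when single kidneys were left out (33 leaving out control 2, 37 for control 6 and 6 for rilmenidine 1). The median of the members stayed within −0.048 to 0.12 without single kidneys and was 0.16 with the replicate block. Log2 fold changes turned sign with a covariate for log2 library size to mt-Nd2 −0.013, mt-Nd4 −0.031, mt-Nd5 0.016, Esrra −0.020 and Tfam −0.038. They also turned with one for log2 Malat1 to mt-Nd5 0.034, mt-Nd6 0.019, mt-Co3 −0.053, Tfam −0.050 and Ppargc1a 0.13. The other turns were with the replicate block to mt-Nd6 0.14, and within the 7 libraries of higher receptor gene counts to mt-Nd4 −0.040, mt-Nd6 0.030, Ndufs3 0.038 and Polg 0.23. Leaving out single kidneys turned mt-Nd6 (−0.10 to 0.085), mt-Nd4 (−0.085 to 0.10), mt-Co1 (−0.031 to 0.16), mt-Co3 (−0.10 to 0.24), Atp5l (−0.43 to 0.055), Polg2 (−0.061 to 0.58), Timm44 (−0.15 to 0.023), mt-Cytb (−0.050 to 0.24) and Polg (−0.53 to 0.0045). None of these values was called before or after, and the cause was not tested. Deviations of same-numbered kidneys correlated by −0.08 to 0.08, and 0 of 4 treated kidneys correlated best with its own number. So few values cannot show whether same-numbered kidneys share more than a number. The block changed no call of a gene named here. The low counts of mt-Co2, mt-Co3 and mt-Atp6 limit any statement on them.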

Other observations

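Among nephron segments whose cells are also rich in mitochondria, 3 of 5 tested markers of the distal convoluted tubule were lower with rilmenidine at an unadjusted p-value under 0.05 and 0 were higher, beside 6.13% of all genes lower and 4.43% higher, with a median log2 fold change of −0.36. The lower ones were Slc12a3, Wnk1 and Trpm6, the last with only 6 to 29 counts in a kidney. The summed level of the distal convoluted tubule markers was 1043 to 1559 normalized CPM in controls and 786 to 1220.1 with the drug. Of 5 tested markers of the thick ascending limb 2 were higher and 0 lower, beside the same 4.43% and 6.13% of all genes, with a median of 0.08. The higher ones were Umod and Egf, while Slc12a1, Kcnj1 and Cldn10 had log2 fold changes of 0.08, 0.07 and 0.06. The summed level was 1845 to 2585 in controls and 2179 to 3278 with the drug, of which Umod alone had means of 1076 and 1643. Of 6 tested markers of intercalated cells 0 were higher and 0 lower, beside the same shares of all genes, with a median of −0.04. No marker passed the adjusted threshold in edgeR's quasi-likelihood test. The marker lists were read from the main fit only, without the library size or Malat1 covariate. The part of these segments and cells in the levels of the mitochondrial genes was not tested.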
